A study of Homo sapiens with 12 samples.

Results

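MIR210 is the human gene of the microRNA miR-210, and it was followed here in small RNA sequencing of the melanoma cell line A375 and of its dabrafenib-resistant derivative A375-BIR. The row was chosen by name: of the 1881 precursor rows listed for every library, 1 carries the GENCODE name MIR210. Dabrafenib is an inhibitor of the kinase BRAF, to which A375 is sensitive. A375-BIR was obtained from A375 by growth in rising concentrations of the drug, so it is a selected cell population and not an edited one. Cells of each line were kept for 48 h either in the vehicle, 0.1% DMSO, or in 200 nM dabrafenib. Each of the 4 combinations of line and treatment has 3 libraries labelled as biological replicates, 12 in all. The comparisons ask whether the level of MIR210 differs between the sensitive and the resistant line, and whether it responds to the drug in either.

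miR-210 is the microRNA most regularly induced by low oxygen. In hypoxia the transcription factor HIF binds near the start of the host gene MIR210HG and raises its transcription, and the microRNA is cut from an intron of that transcript. Its known targets include ISCU, a scaffold for iron-sulfur clusters of the respiratory chain, so that it is regarded as a brake on mitochondrial respiration. HIF activity was not measured in these libraries.

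On the hg38 genome MIR210 spans chr11:568089-568198 on the minus strand, a length of 110 bases. It lies inside the long non-coding gene MIR210HG at chr11:565657-568457, on the same strand. All 9 annotated transcripts of MIR210HG span it, each with MIR210 in an intron, and none has an exon that overlaps it. The protein-coding genes RASSF7 and LMNTD2 are nearby and do not overlap MIR210. The sequences below are from RefSeq (GRCh38.p14) and show what the counted reads stand for. In the mature forms, capitals mark the seed, bases 2 to 8, through which a microRNA pairs with its targets.

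hsa-miR-210-3p: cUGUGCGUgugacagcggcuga
hsa-miR-210-5p: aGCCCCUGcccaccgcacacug

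In the hairpin, capitals mark both mature arms, the 5p arm first.

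MIR210 hairpin: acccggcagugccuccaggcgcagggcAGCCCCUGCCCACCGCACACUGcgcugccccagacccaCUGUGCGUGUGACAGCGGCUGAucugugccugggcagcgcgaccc

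No other of the 2545 mature entries in the RefSeq table has either seed. The longest stretch that the MIR210 precursor shares with the precursor of another row is 12 bases, with MIR6780B and with MIR4498. The deposited values are given per precursor, so reads of the 2 arms are summed and cannot be told apart.

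The promoter of the host gene is shown because MIR210 is cut from its transcript and it was searched for the core motif of HIF binding. The search used the letters ACGTG and GCGTG on both strands, and capitals mark the matches. The window runs from 250 bases before to 50 bases after the start of MIR210HG, at chr11:568408-568707 on the minus strand.

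MIR210HG promoter window: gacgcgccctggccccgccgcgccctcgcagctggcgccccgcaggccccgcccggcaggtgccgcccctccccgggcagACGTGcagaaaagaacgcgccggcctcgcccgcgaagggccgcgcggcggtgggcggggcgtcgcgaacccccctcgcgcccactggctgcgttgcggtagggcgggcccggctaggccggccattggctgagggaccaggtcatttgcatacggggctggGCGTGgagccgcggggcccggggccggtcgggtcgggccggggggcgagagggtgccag

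ACGTG was found at 170 bases before the gene start and GCGTG at 9 bases before it. Of 35116 promoter windows of the same length, 21.4% hold ACGTG, 36.5% hold GCGTG and 23.1% hold 2 or more matches of either kind. In the last share, overlapping matches on opposite strands were counted separately, so a single stretch can count as 2. Matches of this kind are common, and binding of HIF at these letters was not measured here.

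MIR210 was a low-count row in A375. In DMSO, the 3 libraries of A375 held 15, 13 and 7 expected counts of MIR210, of totals of 77264, 121802 and 86898. In dabrafenib they held 11, 3 and 5 expected counts, of 47507, 51532 and 36955. An expected count is the number of reads the authors' program assigned to the precursor, where a read that fits several sequences is divided among them. The value of 3 has an exact 95% Poisson interval of 0.619 to 8.77, so the levels in A375 under dabrafenib are known only roughly.

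A375-BIR had several times as many. Its DMSO libraries held 74, 100 and 45.5 expected counts, of totals of 106427, 120625 and 122792. The value of 45.5 is not whole, and the sequence it shared reads with was not identified here. Its dabrafenib libraries held 26, 30 and 39, of 35069.5, 59899 and 47607. Totals in dabrafenib were lower than in DMSO in both lines, so raw counts of the 2 treatments are not comparable and levels are given below as CPM, counts relative to a library total scaled by the TMM method.

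In A375 in DMSO the level of MIR210 was 179.6, 98.7 and 73.6 CPM in replicates 1, 2 and 3, and in dabrafenib 287, 84.6 and 166 CPM. The ranges of these 2 groups overlap. In A375-BIR in DMSO it was 670.4, 784 and 318 CPM, and in dabrafenib 710.1, 451 and 789 CPM. These ranges overlap as well. All 6 libraries of A375-BIR lie above all 6 of A375, although the margin is narrow between the nearest: the third DMSO library of A375-BIR, at 318 CPM (exact 95% Poisson interval 235 to 429), is 1.11 times the first dabrafenib library of A375, at 287 CPM (143 to 513). The intervals cover counting error only. In bulk RNA, a higher level in every cell and a larger share of cells with a high level cannot be told apart.

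**Figure D1:**
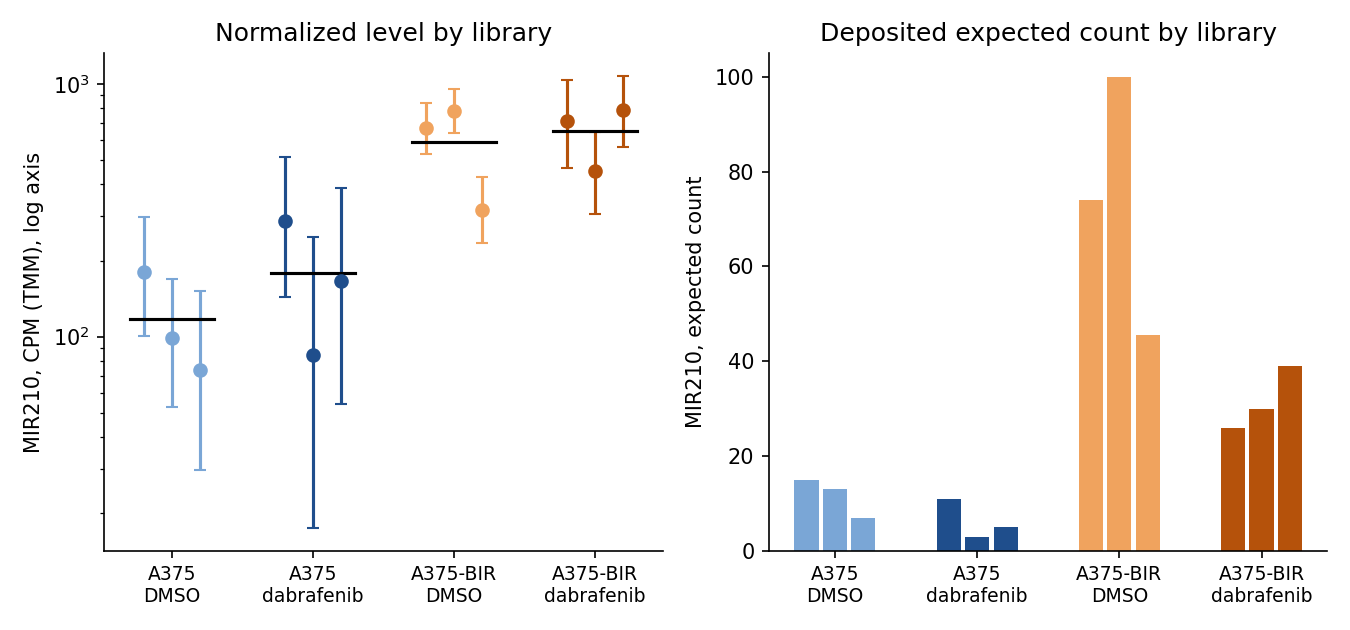
MIR210 in each of the 12 libraries, by line and treatment, replicates 1 to 3 from left to right. Left, CPM after TMM scaling on a log axis, with exact 95% Poisson intervals as bars (counting error only) and group means as black lines. Right, expected counts as deposited. All points of A375-BIR, 318 to 789 CPM, are above all points of A375, 73.6 to 287 CPM, and the lowest count is 3.

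The group means were 117 ± 55.4 CPM in A375 in DMSO, 179 ± 102 in A375 in dabrafenib, 591 ± 243 in A375-BIR in DMSO and 650.1 ± 177 in A375-BIR in dabrafenib (SD, n = 3 each). Within each line the neighbours in this order, DMSO and dabrafenib, do not differ beyond their spread. The step in the order falls between the lines. Among the 175 precursors with enough counts to be tested, MIR210 ranked 145 and 141 by mean CPM in A375, in DMSO and dabrafenib, and 83 and 76 in A375-BIR. It was thus among the less abundant tested precursors in the sensitive line and near the middle in the resistant line. The SD was 47.2% of the mean in A375 in DMSO, where counting error alone gives 30.9%, and 41.1% in A375-BIR in DMSO, where counting error gives 12.3%. In the latter group the spread between replicates was larger than counting error, and replicate 3 was the low library. This library stood apart over all rows: the chi-square for each degree of freedom was 29.4 and 32.1 against replicates 1 and 2, 2.50 between those, and 3.36 to 14.2 within the other groups. Without it the line difference of MIR210 described next was 2.22 on the log2 scale with the treatments together, 2.64 within DMSO and 1.80 within dabrafenib, and was called in each.

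MIR210 was higher in A375-BIR than in A375 over both treatments, with a log2 fold change of 2.08 (SE 0.32, 95% interval 1.38 to 2.77, adjusted p = 6.29e-05, edgeR quasi-likelihood test with Benjamini-Hochberg adjustment over 175 precursors, n = 6 libraries a line). This is a 4.21-fold difference, with an interval of 2.61-fold to 6.81-fold. Many precursors differed between the lines: 60 of 175 tested, 34.3%, were called higher in A375-BIR and 45, 25.7%, were called lower, so that the call alone does not set MIR210 apart. In the order of log2 fold changes it ranked 10 from the top of the 175. The neighbours in that order were MIR15B, from a cluster that restrains the cell cycle, at 2.10 (SE 0.26), and MIR222, which targets the cell cycle inhibitor p27, at 1.94 (SE 0.11). Neither differs from MIR210 beyond the standard errors. MIR210 has a larger standard error than both.

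In DMSO alone the log2 fold change of MIR210 was 2.35 (SE 0.42, 95% interval 1.45 to 3.24, adjusted p = 0.000379 by edgeR's quasi-likelihood test, 3 libraries a group), a 5.08-fold difference. It was one of 53 precursors called higher in A375-BIR in DMSO, 30.3% of those tested. In dabrafenib it was 1.80 (SE 0.50, 0.74 to 2.87, adjusted p = 0.00852, edgeR), a 3.49-fold difference, beside 39 precursors called higher, 22.3%. All 3 libraries of A375-BIR were above all 3 of A375 in each treatment. Groups that do not overlap were common: 61.1% of the tested precursors had them in DMSO and 50.3% in dabrafenib. The estimate in dabrafenib depends most on the first A375 library. Without it the fold is 5.44 (log2 2.44, adjusted p = 0.00852, edgeR), and without the second, with its 3 counts, it is 2.75 (log2 1.46, adjusted p = 0.047, edgeR), the highest adjusted p among the alternatives.

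An exact permutation test that exchanged line labels within each treatment used no model. Labels were exchanged freely, so the test does not keep the pairs of same-numbered DMSO libraries described below. Exchange within those pairs was not run, and it would allow fewer arrangements and a larger smallest p. The difference between the lines in mean log2 CPM was 1.95, and its two-sided exact p was 0.005, the smallest that 400 arrangements allow (0.01 after Benjamini-Hochberg adjustment over the 2 such tests). Within a treatment, 3 libraries against 3 cannot give an exact p under 0.1, and MIR210 reached that limit in DMSO and in dabrafenib.

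The response to dabrafenib was small beside the line difference and did not pass the test in either line. In A375 the log2 fold change of MIR210 under the drug was 0.66 (SE 0.57, 95% interval -0.57 to 1.90, adjusted p = 0.437, edgeR). The interval reaches from 0.674 to 3.72 times the DMSO level, so with 3 to 15 counts a library the data do not exclude a change within these bounds. In A375-BIR it was 0.12 (SE 0.37, -0.66 to 0.91, adjusted p = 0.864, edgeR), an interval of 0.631 to 1.88 times the DMSO level. The sign of this value was not stable: it was -0.22 without the third DMSO library of A375-BIR, -0.06 without dabrafenib replicate 3 of the line, -0.12 with the filter of 1 CPM and -0.11 with no filter, none of them called. The bounds are tighter in A375-BIR, where MIR210 had more counts.

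Other precursors did respond. In A375, 32 of 175 were called higher in dabrafenib, 18.3%, and 12 lower, 6.86%. With at least 1 CPM in 3 libraries, 19 of 538 tested were higher and 34 lower. With no filter, 20 of 839 were higher and 27 lower. These fits tested more precursors, so the splits are not of the same 175. The lower calls became 28 with only the libraries compared and 7 without the first DMSO library of A375. In A375-BIR, 23 were called higher, 13.1%, and 13 lower, 7.43%. The 13 lower calls became 1 with only the libraries compared, 6 with the replicate block and 8 with DESeq2's Wald test. With the filter of 1 CPM they were 28 of 538 tested. With a single library of A375-BIR left out they became 2 and 6 (DMSO replicates 1 and 2) and 5 and 7 (dabrafenib replicates 2 and 3), and without the rows like ribosomal RNA described below the split was 15 to 17. The difference between the responses of MIR210 in the 2 lines, A375-BIR minus A375, was -0.54 (SE 0.68, -1.99 to 0.91, adjusted p = 0.76, edgeR), and 6 precursors, 3.43%, passed this test either way. Without the first dabrafenib library of A375 the difference was 0.10, of the opposite sign, and without the first DMSO library of A375 it was -0.92, neither called. With treatment labels exchanged within each line, the difference in mean log2 CPM of MIR210 was 0.32 (exact p = 0.34, two-sided). Counts of calls depended on single libraries: in A375-BIR, 36 in all became 20 and 22 without its DMSO replicates 1 and 2, and 19 with only the libraries compared. The 6 calls of the difference became 3 without DMSO replicate 1, dabrafenib replicate 1 or dabrafenib replicate 2 of A375, and 2 without the rows like ribosomal RNA. None of these tests detected a response of MIR210, and their intervals do not show that there was none.

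**Figure D2:**
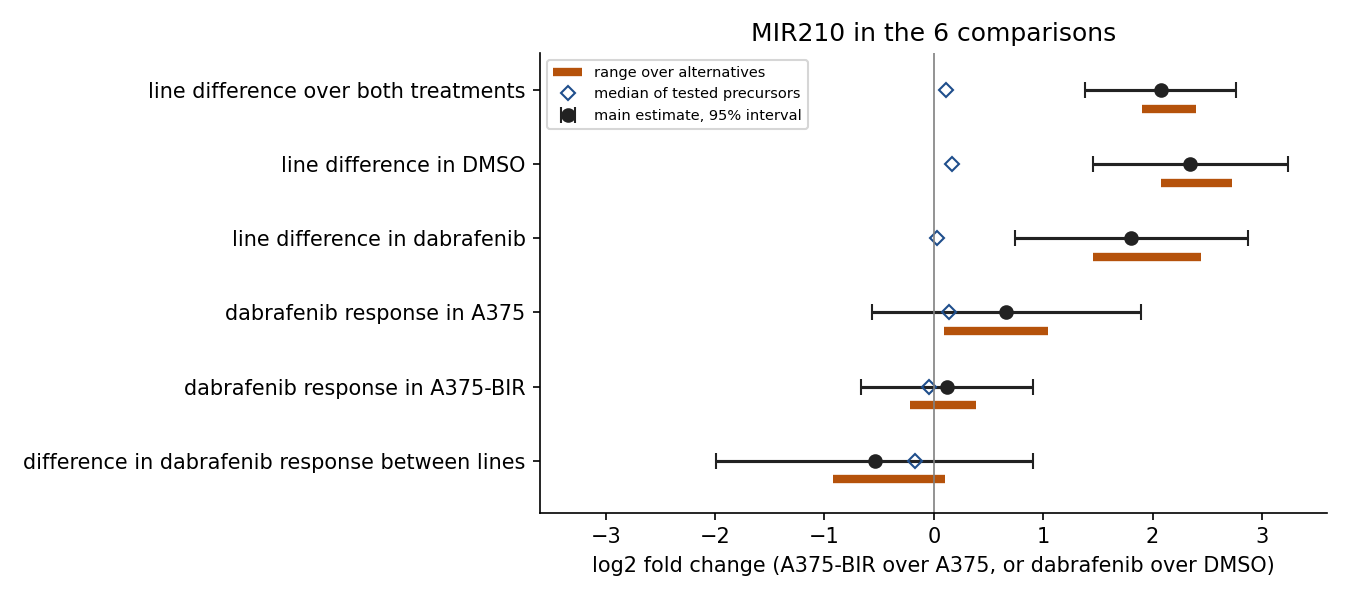
Log2 fold change of MIR210 in 6 comparisons, with 95% intervals (black), the range over all alternative settings (orange bars) and the median of the 175 tested precursors (open diamonds). The intervals of the 3 line differences lie above 0, the lowest bound being 0.74, and those of the responses and of their difference include 0.

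The libraries of the treatments also differ in makeup, which bears on the responses. Rows that share a stretch with ribosomal RNA took 3.22% to 5.59% of the counts in A375 in DMSO and 20.9% to 26.3% in dabrafenib. In A375-BIR they took 2.65% to 4.57% and 14.4% to 16.9%. The part of this shift in the response of MIR210 was not tested by itself, but without those rows the responses of MIR210 were 0.53 in A375 and 0.12 in A375-BIR, and its line difference over both treatments was 2.17.

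The choice of scaling matters for the same libraries. Scaled by total counts only, the tested precursors had a median that moved from 0.03 to 0.50 for the lines in dabrafenib and from 0.14 to -0.36 for the response in A375 (log2 fold changes). MIR210 moved with it, to 2.27 and 0.17. Another scaling shifts all precursors of a library alike, so a value relative to the median is nearly fixed by construction and says nothing about stability. Relative to the median of all tested precursors, its line difference over both treatments was 1.96 with TMM, 1.97 with DESeq2's size factors and 1.95 with total counts, and its response in A375 was 0.52, 0.53 and 0.53. By contrast, the numbers called in each direction depended on the scaling. For the lines over both treatments it was 60 to 45 with TMM, 50 to 54 with DESeq2's size factors, 46 to 46 with DESeq2's Wald test and 72 to 35 with total counts. For the lines in DMSO it was 53 to 28, and 43 to 38 with DESeq2's size factors. In dabrafenib it was 39 to 42, and 59 to 24 with total counts. Among the larger sets tested with the other filters, it was 57 to 33 of 538 with 1 CPM and 54 to 31 of 839 with no filter. It also turned to 45 to 32 with only the libraries compared, 45 to 29 without the rows like ribosomal RNA and 41 to 37 with the replicate block. Single libraries left out turned it as well. It was 41 to 36 without DMSO replicate 1 of A375-BIR and 41 to 39 without dabrafenib replicate 3 of A375-BIR. Without dabrafenib replicate 1 of A375 it was 40 to 35, and without DMSO replicate 3 of A375 it was 40 to 40. For the response in A375 it was 32 to 12, 23 to 23 with DESeq2's size factors and 18 to 44 with total counts. In A375-BIR it was 23 to 13, and 23 to 20 with DESeq2's size factors, and for the difference in response 1 to 5, and 5 to 3 with total counts.

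Precursors known to rise in hypoxia were set beside MIR210. The list has 22 other members, of which 15 had enough counts to be tested. Over both treatments 6 of them were higher in A375-BIR, 3 were lower and 6 were not called, which is 40.0% and 20.0% of those tested, near the 34.3% and 25.7% of all tested precursors. The 6 include the copies MIR26A1 and MIR26A2, at 0.42 and 0.43 (SE 0.16 each), and the 3 include MIR181B1 and MIR181B2. Copies share reads and are not separate observations. The 6 became 4 without DMSO replicate 3 or dabrafenib replicate 1 or 2 of A375-BIR. They also became 4 without DMSO replicate 1 or 2 or dabrafenib replicate 2 of A375. The median log2 fold change of the members was 0.36, against 0.11 for all tested precursors and 2.08 for MIR210. In DMSO alone it was 0.015, below the 0.16 of all tested precursors, with 3 members higher and 1 lower (53 and 28 of all 175). In dabrafenib it was 0.45, against 0.03, with 4 higher and 3 lower (39 and 42 of all 175). With DESeq2's size factors 4 were higher and 3 lower, and with total counts 7 and 2. With either other filter 8 were higher and 1 lower, but those fits tested more precursors, so these are not counts of the same 15. With at least 1 CPM in 3 libraries, 85 of all 538 tested were called higher and 49 lower. With no filter, 81 of 839 were higher and 47 lower. No tested member had a value as high as that of MIR210.

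MIR424, which stabilizes HIF by targeting the scaffold CUL2, was nearest to it, at 1.83 (SE 0.28, adjusted p = 5.95e-05, edgeR). MIR27A and MIR24-2, of 1 cluster, were higher by 1.32 (SE 0.20) and 0.95 (SE 0.14). MIR27B was higher by 0.66 (SE 0.16). Opposite to MIR210, MIR155, a microRNA of immune and inflammatory signalling, was lower by a log2 fold change of -3.55 (SE 0.29, adjusted p = 1.06e-07, edgeR), and MIR181B1 was lower by -0.48 (SE 0.10). The call of MIR181B1 was lost with a filter of 1 CPM in 3 libraries and with no filter. In DMSO alone neither MIR27B (0.42, adjusted p = 0.132, edgeR) nor MIR181B1 (-0.20, adjusted p = 0.236, edgeR) was called. In dabrafenib both were, at 0.90 and -0.76.

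Under dabrafenib 2 of the 15 members rose in A375 and none fell, 13.3% and 0%, where 18.3% and 6.86% of all tested precursors did. They were MIR181B1 by 0.78 (SE 0.14, adjusted p = 0.000616, edgeR) and MIR181B2 by 0.71 (SE 0.13). These copies give the same mature microRNA, so their reads were divided between them. Neither was called with total counts, where 5 other members were called lower, nor with either other filter, where 1 other was called lower. In A375-BIR 2 members rose, MIR155 by 1.54 (SE 0.49, adjusted p = 0.0395, edgeR) and MIR27B by 0.71 (SE 0.22), and MIR24-2 fell by 0.65 (SE 0.19, adjusted p = 0.0281, edgeR). These are 13.3% and 6.67% of the 15, near the 13.1% and 7.43% of all tested precursors. The calls of MIR155 and MIR27B were each lost in 9 of 22 alternatives. That of MIR24-2 was lost in 7, namely with only the libraries compared, with the replicate block and without the first or second DMSO library or any dabrafenib library of A375-BIR. The number of calls in A375-BIR, 3, became 0 or 1 when any of several single libraries was left out: without the first or second DMSO library or any dabrafenib library of A375-BIR, or without the first DMSO library of A375. MIR210 was not called in either line, like most of the members tested.

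A separate list holds 17 precursors described as targeting HIF subunits or their degradation, of which 10 were tested. Over both treatments 6 of them were higher in A375-BIR, 3 were lower and 1 was not called, beside 34.3% higher and 25.7% lower among all tested precursors. The median was 1.03, against 0.11 for all tested precursors, and with DESeq2's size factors 4 were higher and 3 lower. In DMSO alone 4 were higher and 3 lower (53 and 28 of all 175), and in dabrafenib 3 and 3 (39 and 42 of all 175). Among the members that were higher were MIR30A at 2.33 (SE 0.14), MIR424 as above and MIR30C2 at 1.43 (SE 0.17). MIR30A and MIR30C2 lie close together on chromosome 6 and need not be independent. MIR17 at 1.01 (SE 0.39) and MIR20A at 1.33 (SE 0.45) were also called higher, but in neither treatment alone. MIR155, which both lists hold, MIR199A1 at -2.19 (SE 0.36) and MIR199A2 at -2.17 (SE 0.36) were lower. The last pair give the same mature microRNA and share reads. Both had few counts, at most 18.3 in a library, and their rise under dabrafenib in A375, the only 2 calls of this list there (20.0% of the 10, beside 18.3% of all tested precursors), became 0 under the replicate block, both other scalings, both other filters and DESeq2's Wald test, and 0 or 1 when any of the 6 libraries of A375 was left out. In A375-BIR the only call was that of MIR155 (10.0%, beside 13.1%), lost with only the libraries compared and when any of 8 libraries was left out (DMSO replicates 1 and 3 and dabrafenib replicates 2 and 3 of A375-BIR, DMSO replicates 1 and 2 and dabrafenib replicates 2 and 3 of A375).

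**Figure D3:**
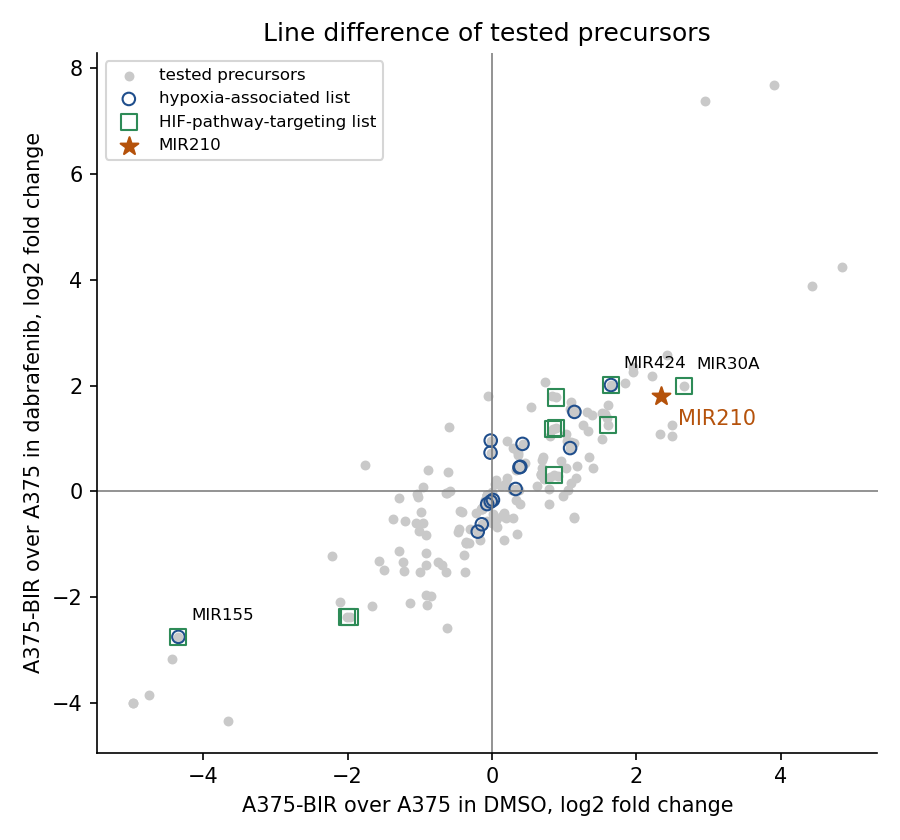
Log2 fold change of A375-BIR over A375 in DMSO (x axis) and in dabrafenib (y axis) for the 175 tested precursors (grey), with the members of both lists and MIR210 marked. MIR210 is at 2.35 and 1.80, near MIR30A, and MIR155 is at the opposite corner at -4.34 and -2.75.

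On chromosome 11, MIR210 had no tested neighbour close by. Within 5 Mb of it lie 8 other rows, of which 3 had at least 1 expected count in some library and none was tested. The largest value among them was 8 expected counts, in MIR4687. The nearest row, MIR6743, at -359 kb (toward the chromosome end), reached 2. Whether the region around MIR210 differs between the lines as a whole could therefore not be read from its rows.

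The nearest tested row was MIR1908, at 61.2 Mb, with a line difference over both treatments of 0.54 (SE 0.26, adjusted p = 0.0867, edgeR), which was called with total counts alone, without rRNA-like rows, and without the first DMSO or the first dabrafenib library of A375-BIR. MIR192, a target of p53, followed at 64.3 Mb with 0.42 (SE 0.32). MIR612 at 64.9 Mb, within the long non-coding gene NEAT1, was lower at -1.41 (SE 0.20, adjusted p = 3.40e-05, edgeR), and the unnamed row ENSG00000280773.2 at 103.7 Mb was higher at 1.23 (SE 0.34). Of the 8 tested rows on this chromosome besides MIR210, 4 were higher in A375-BIR and 2 lower, with a median of 0.53, beside 34.3%, 25.7% and a median of 0.11 for all tested precursors. Among the higher rows, MIR125B1, MIRLET7A2 and MIR100 lie close together, at 121.53, 121.58 and 121.58 Mb from MIR210, and need not be independent. The lower row ENSG00000283704.1 is one of the rows like ribosomal RNA. Each of the 8 was farther from MIR210 than 61 Mb and had a smaller line difference than MIR210.

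**Figure D4:**
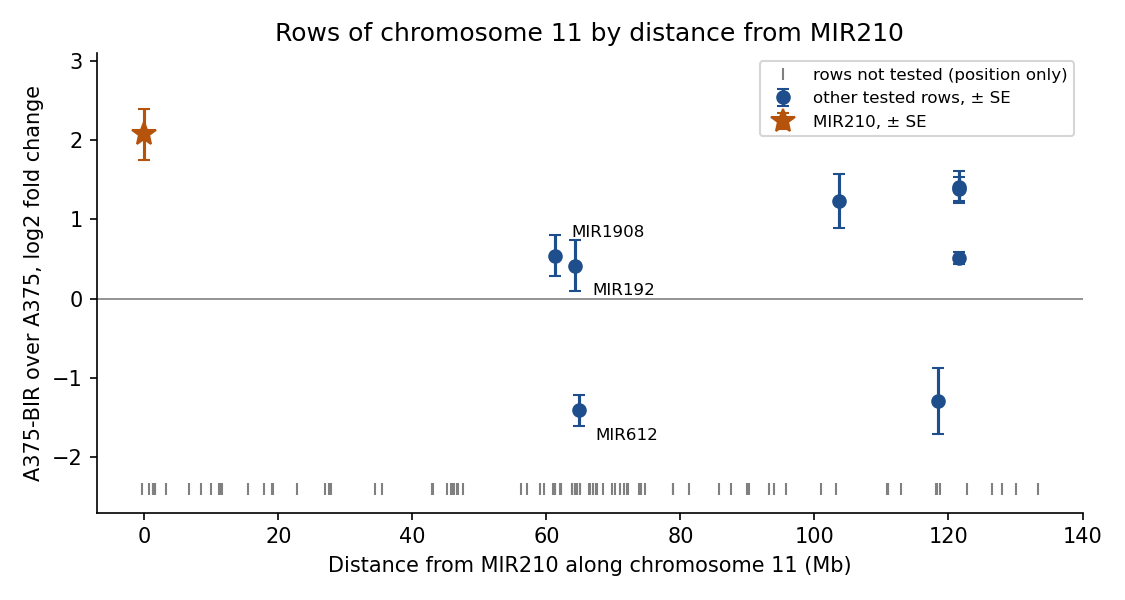
Line difference over both treatments (log2 fold change of A375-BIR over A375, ± SE) of the 9 tested rows of chromosome 11 against distance from MIR210 in Mb. Ticks at the foot mark rows that were not tested. MIR210, at 2.08, has no tested row within 61 Mb, and nearby points at the right overlap.

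Across the 12 libraries, the rows whose log2 CPM was most like that of MIR210 were MIR30A (Pearson r 0.92, Spearman rho 0.87), MIR196B (0.90 and 0.90), MIR30C2 (0.86 and 0.82), MIRLET7C (0.85 and 0.79) and MIR30C1 (0.83 and 0.84). The libraries fall into the 2 lines, and all 5 of these rows are higher in A375-BIR, so the coefficients describe mainly that shared step. The 5 rows were the same with total counts alone, and 4 of them were among the top 5 by Spearman rho. Their mature sequences are shown with seeds in capitals, since 3 of the 5 have a seed in common that MIR210 does not.

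hsa-miR-30a-5p: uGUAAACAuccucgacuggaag
hsa-miR-30c-5p: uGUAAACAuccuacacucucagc
hsa-miR-196b-5p: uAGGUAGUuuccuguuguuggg
hsa-let-7c-5p: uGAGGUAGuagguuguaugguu

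MIR30C1 on chromosome 1 and MIR30C2 on chromosome 6 give the same mature miR-30c-5p and share reads, so they are not separate observations. None of the 5 is on chromosome 11. They differ from MIR210 in level: MIR30A, at 3527 ± 285 CPM in A375 in DMSO and 22310 ± 4206 in A375-BIR in DMSO, was far more abundant, and MIR196B, from the HOXA cluster, was closest in level, at 88.3 ± 17.6 and 500.1 ± 136 CPM. Least like MIR210 were MIRLET7D (r -0.91), MIR1180 (r -0.90) and MIR146A (r -0.90), all lower in A375-BIR. MIR146A, a microRNA that restrains inflammatory signalling, went from 24294 ± 1903 CPM in A375 in DMSO to 1117 ± 272.6 in A375-BIR in DMSO.

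**Figure D5:**
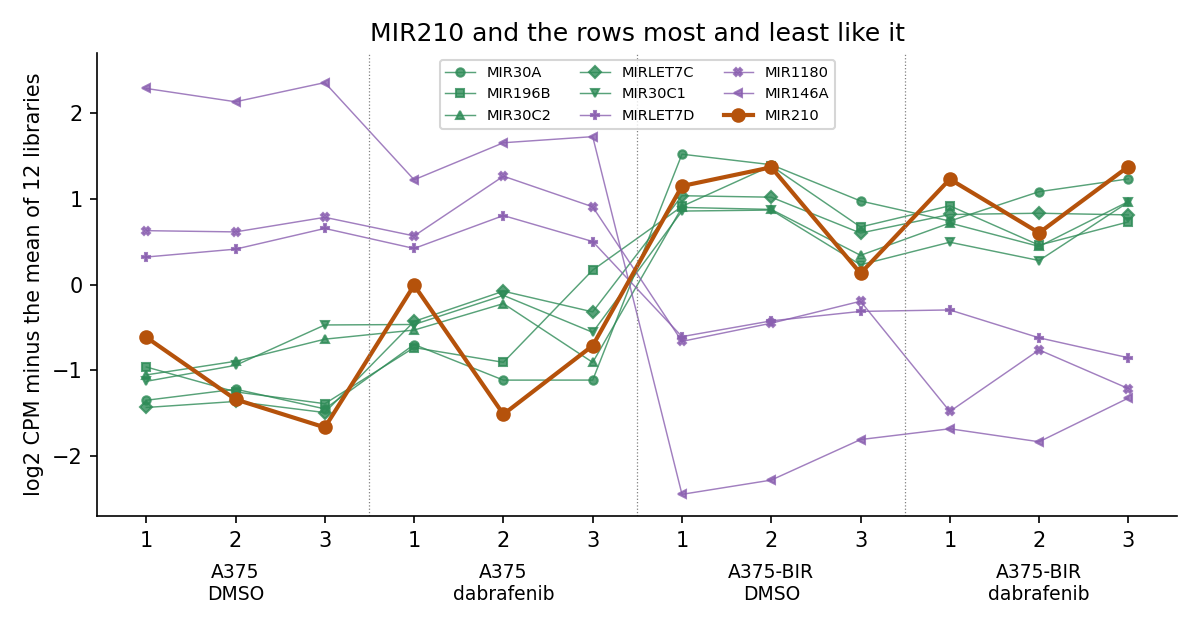
Log2 CPM minus the mean over 12 libraries, for MIR210 (orange), the 5 rows most like it (green) and the 3 least like it (purple), replicates 1 to 3 in each group. Lines only link the points of a row. MIR210 runs from -1.67 to -0.01 in A375 and from 0.13 to 1.38 in A375-BIR.

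The labelled cell type was checked with marker microRNAs. Of 14 markers of melanocytes and melanoma, 11 had a count, MIR221 was the most abundant and MIR514A1, MIR514A2 and MIR514A3 were at 0 in all libraries. As CPM of the unscaled library totals, their sum averaged 57852 in A375 in DMSO and 30781 in dabrafenib, and 70228 and 42996 in A375-BIR. The members did not move alike between the lines. MIR221 and MIR222 were higher in A375-BIR over both treatments, by 1.03 (SE 0.14) and 1.94 (SE 0.11) on the log2 scale. MIR204, from the gene TRPM3, was lower at -4.00 (SE 0.25), MIR146A at -3.80 (SE 0.16), and MIR509-1, MIR509-2 and MIR509-3, near-identical copies that share reads, at -4.49, -4.49 and -4.30. MIR146A was the most abundant of them in A375 in DMSO, at 24294 CPM beside 21420 for MIR221, and MIR221 was in A375-BIR. The sum follows such abundant members and does not by itself show the lineage. Nor did they move alike under the drug. In A375, MIR204 rose by 1.84 (SE 0.29, adjusted p = 0.000289, edgeR) and MIR222 fell by 0.67 (SE 0.15, adjusted p = 0.00378, edgeR), both called under every alternative run. MIR146A at -0.71 and MIR221 at -0.61 were called lower, and MIR509-1, MIR509-2 and MIR509-3 at 0.80, 0.80 and 0.81 higher. Those calls were lost in 3, 4, 10, 10 and 12 of 22 alternatives, in that order. For the MIR509 copies these include both other filters, both other scalings and the replicate block, and for MIR146A and MIR221 they are all single libraries of A375 left out (DMSO replicates 1 and 3 and dabrafenib replicate 1, and DMSO replicates 1 and 2 and dabrafenib replicates 2 and 3). In A375-BIR, MIR221 at -0.84 and MIR222 at -0.47 were called lower, lost in 2 and 6 alternatives that include only the libraries compared and leaving out its first DMSO library, and MIR204 at 1.16 (SE 0.41) was not called but passed in 5. MIR211, from the melanocyte gene TRPM1, had at most 9 expected counts in a library, and MIR506, MIR508 and MIR513C at most 1, 16 and 8. Markers of other cells were low: at most 13 expected counts in a library for 7 epithelial markers together, 8 for 4 blood markers, 9 for the endothelial MIR126 and 6 for 5 muscle markers, and MIR122 of liver was at 0 in all libraries. The 6 neural markers together reached 34 and the 5 of fibroblasts and smooth muscle 84.3, most of it MIR143. MIR143 was higher in dabrafenib in A375-BIR, at 217 ± 23.3 CPM in DMSO and 753 ± 265 in dabrafenib (SD, n = 3 each; log2 fold change 1.80, SE 0.41, adjusted p = 0.00661, edgeR), and was not called in A375 (0.83, SE 0.43) or between the lines over both treatments (-0.13, SE 0.29). The difference of its responses did not pass the test (0.96, SE 0.59). MIR199A1 and MIR199A2, which this list shares with the HIF-pathway list, were lower in A375-BIR, as given above. MIR126 summed to 2 expected counts over the A375 libraries in DMSO and 18 over those of A375-BIR, and to 3 and 2 in dabrafenib. The part of these markers in the results for MIR210 was not tested.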

How the data were processed

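The authors prepared small RNA libraries from total RNA, trimmed the reads, removed those from contaminating sequences, and deposited expected counts per miRNA precursor. The submitters' processing notes name RSEM 1.2.25, R 4.0.2 and edgeR. The expected counts were not normalized and need not be whole. Of 1881 rows, 1879 matched GENCODE release 44 and 1854 have a name. Totals were 35069.5 to 122792 expected counts a library, so 3 counts correspond to 20.7 to 99.7 CPM, and this limits precision for low rows.

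Counts were rounded and analysed with edgeR 4.0.16 (R 4.3.3). Low rows were removed by filterByExpr, which kept 175 precursors, and libraries were scaled by TMM. A model with 1 mean for each of the 4 groups was tested by quasi-likelihood, and p-values were adjusted by the Benjamini-Hochberg method (threshold 0.05). Line differences are A375-BIR over A375, and responses dabrafenib over DMSO. Log2 CPM for exact tests and correlations used a prior count of 2. The biological coefficient of variation was 21.6%. DESeq2 1.42.0 served as an alternative. Tables and plots were made in Python 3.11.15 with pandas 2.3.3, SciPy and matplotlib 3.10.9.

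MIR210 and the lists were chosen with earlier results of these data known. The study's list of differing microRNAs, made on the same libraries, holds miR-210 and gives no independent evidence. Named rows were the 5 most and 3 least correlated with MIR210, its neighbours in order of line difference, up to 6 list members called between lines and up to 4 called for a response, and the 4 nearest tested rows on chromosome 11. Other rows named, such as MIR26A1, MIR17, MIR125B1, MIR24-2 and the markers for their responses, were chosen after their values were seen. rRNA-like rows, 17 in all, share 18 or more bases with the 45S ribosomal precursor. Same-numbered DMSO libraries of the lines deviated together from their group means (r of 0.11, 0.22 and 0.30), so the numbers were taken to pair these libraries. No other combination of groups had all its values above 0.1. The replicate block nevertheless ties same-numbered libraries of all 4 groups, those in dabrafenib included. Between DMSO and dabrafenib in A375-BIR the values were -0.32, 0.006 and -0.54. The main model has no block. The labels do not say what a number shares. Library pairs within groups differed beyond counting error, with a chi-square of 2.50 to 32.1 for each degree of freedom, and none was merged.

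Alternatives were other filters, scalings and tests, a fit of only the libraries compared, a replicate block, unrounded counts, omission of rRNA-like rows, and each library left out. The RNA sequencing of mRNA and the functional experiments of the study were not analysed here.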

Additional observations from a re-analysis of the deposited data

Results flagged for a closer look

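For MIR210 the difference between the lines in the response to dabrafenib did not pass the test. Among the rows named beside it, the response of 2 did, by the test of the difference itself. For MIR146A the response in A375-BIR minus that in A375 was 1.27 on the log2 scale (SE 0.29, adjusted p = 0.0226, edgeR quasi-likelihood test), with responses of -0.71 in A375 and 0.56 in A375-BIR. This call was lost in 7 of the 12 fits with 1 library left out: without DMSO replicate 1 or 2 or dabrafenib replicate 3 of A375-BIR, and without DMSO replicate 1 or 3 or dabrafenib replicate 1 or 2 of A375, where the difference was 1.11 to 1.33 and the adjusted p 0.0512 to 0.0734 (edgeR). For MIRLET7C it was -1.25 (SE 0.22, adjusted p = 0.0104, edgeR), with responses of 1.17 and -0.08, and the call was lost under no alternative run, the highest adjusted p being 0.0499 with total counts, where the difference was -0.76 (edgeR). For MIR210 the same quantities were -0.54, 0.66 and 0.12. The cause was not tested.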

How the results depend on the processing

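The line difference of MIR210 kept its direction and its side of the threshold under every alternative run: 1.90 to 2.40 over both treatments, 2.08 to 2.73 in DMSO and 1.46 to 2.44 in dabrafenib, with adjusted p (edgeR or DESeq2) of at most 0.000396, 0.00365 and 0.047. With the replicate block it was 2.12, 2.35 and 1.89, and the block changed no call of MIR210. The block ended the 2 calls of the HIF-pathway list for the response in A375 (MIR199A1 and MIR199A2) and the response calls of MIR509-1, MIR509-2 and MIR509-3 in A375 and of MIR24-2 and MIR222 in A375-BIR, and took the precursors called lower in dabrafenib in A375-BIR from 13 to 6. Among the others of 47 results followed for named rows besides MIR210, the block changed no call. Those 47 do not hold every value printed, such as the responses of MIRLET7C within each line or the values of MIR26A1 and MIR26A2. The line calls of the hypoxia list over both treatments went from 9 to 8 with it, with 5 higher instead of 6. The responses of MIR210 were called under no alternative and ranged from 0.10 to 1.04 in A375. In A375-BIR the sign turned to -0.12 with a filter of 1 CPM in 3 libraries and -0.11 with no filter, and values with 1 library left out ran from -0.22 to 0.39, with -0.06 without the third dabrafenib library of A375-BIR. The difference in response ran from -0.92 to 0.10 with 1 library left out. The exact tests gave the same side of the threshold with a prior count of 0.5 and with total counts. For the lines the exact permutation p was 0.005 in each setting, the smallest possible, so it cannot show how stable that result is.

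Counts for responses moved more. The precursors called for the response in A375-BIR, 36, became 19 with only the libraries compared, and 20 to 46 with 1 library left out. The 6 called for the difference in response became 2 without rRNA-like rows, and 3 to 6 with 1 library left out. Of the hypoxia list, the 2 calls in A375 became 1 with a filter of 1 CPM, 1 with no filter and 5 with total counts, and the 3 in A375-BIR became 0 with only the libraries compared and 0 to 3 with 1 library left out. Of the HIF-pathway list, the 2 calls in A375 became 0 with either other filter, either other scaling, the Wald test or the replicate block, and 0 to 2 with 1 library left out. The 1 in A375-BIR became 0 with only the libraries compared and 0 to 1 with 1 library left out. The cause was not tested. For the 47 results followed for other named rows, 886 of 1005 values kept direction and side of the threshold, 110 lost and 9 gained a call, and 0 changed sign.

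Depth limits the values of MIR210 in A375 most, where the 6 libraries hold 3 to 15 expected counts.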
